A study of Mus musculus with 44 samples.

Results

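Myelin is the stacked glial membrane that insulates axons. In peripheral nerve it is made by Schwann cells, while satellite glial cells (SGCs), which wrap the cell bodies of sensory neurons in dorsal root ganglia (DRGs), arise from the same neural crest lineage and form no compact myelin. The 8 myelin genes described here were chosen by name: Mbp, Pmp22, Mag, Prx, Ncmap, Mal, Cnp and Egr2. They and the further gene lists below were chosen with earlier results of these data known, so the choice was not blind to them. They are 8 of the 45882 genes in the table of naive libraries and of the 45882 in the table of SGC libraries after surgery, and 5 of the 8 are among the 12170 genes in the table of neuron libraries. Mag, Prx and Egr2 were not analysed as FPKM in neurons.

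RNA was sequenced in bulk in 44 libraries of 12 groups, all from C57BL/6 mice. Naive mice of 9 weeks gave 4 libraries of sorted SGCs and 4 of whole DRGs. Mice of 9 to 11 weeks gave SGC libraries 3 days after full ligation of the sciatic nerve (n = 4) or sham surgery (n = 4), and again at 14 days (n = 4 each). Neuron libraries were made 8 days after partial ligation. They came from the ligated side (n = 4) and the opposite side (n = 4) of mice with no sex in the titles, and from ligated males (n = 3), sham males (n = 3), ligated females (n = 3) and sham females (n = 3). The SGCs came from L3 and L4 ganglia that were dissociated, fixed in 4% paraformaldehyde, stained and sorted by flow cytometry. The naive DRGs were dissociated and fixed but not sorted. The neurons came from L3 to L5 ganglia with a magnetic neuron isolation kit, with no fixation in their protocol. Expression is given as FPKM, a fragment count divided by transcript length and library size, so levels of different genes within a library can be set side by side. The 3 tables were scaled separately and were tested only within a table. No label says which libraries share animals, so a p-value measures the spread between libraries, which may be technical.

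Compact myelin holds Mbp, which fuses the cytoplasmic membrane faces, and Pmp22, a tetraspan membrane protein. Mag, Prx and Ncmap belong to the membrane outside the compact layers. Mag is a sialic acid binding adhesion protein of the membrane next to the axon, Prx (periaxin) a scaffold protein that anchors the Schwann cell membrane to its surroundings, and Ncmap a small membrane protein of non-compact myelin. Mal is a proteolipid of myelin that also sorts lipid-rich membrane, Cnp a cyclic nucleotide phosphodiesterase that keeps cytoplasmic channels open, and Egr2 the zinc finger transcription factor that, with Sox10, switches on myelin genes in Schwann cells. Mbp, Mag, Mal and Cnp are also myelin genes of oligodendrocytes in the central nervous system.

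The start regions of 4 members are shown as examples of genes that were near 0 in the sorted cells and of genes that were not: Ncmap, which had the largest fall, and Mag, which had the lowest level, with Mal and Cnp, which had the highest differences. Each line gives the 250 bases before the RefSeq start site on the GRCm38.p6 assembly, read 5′ to 3′ on the gene's own strand. The windows are chr4:135398228-135398477 (minus strand) for Ncmap, chr7:30914864-30915113 (minus strand) for Mag, chr2:127656696-127656945 (minus strand) for Mal and chr11:100574689-100574938 (plus strand) for Cnp. Capitals mark matches to the SOX letters ACAAAG or ACAATG, searched on both strands.
Ncmap: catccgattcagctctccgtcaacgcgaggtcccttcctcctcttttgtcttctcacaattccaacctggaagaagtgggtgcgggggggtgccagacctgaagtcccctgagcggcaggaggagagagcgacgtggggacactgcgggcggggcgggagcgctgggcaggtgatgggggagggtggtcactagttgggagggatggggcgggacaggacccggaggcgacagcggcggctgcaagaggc
Mag: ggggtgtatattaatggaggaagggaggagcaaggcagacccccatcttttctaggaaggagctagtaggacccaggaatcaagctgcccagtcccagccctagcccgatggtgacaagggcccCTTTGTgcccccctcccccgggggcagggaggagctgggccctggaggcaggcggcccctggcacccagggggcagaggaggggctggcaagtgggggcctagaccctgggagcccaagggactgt
Mal: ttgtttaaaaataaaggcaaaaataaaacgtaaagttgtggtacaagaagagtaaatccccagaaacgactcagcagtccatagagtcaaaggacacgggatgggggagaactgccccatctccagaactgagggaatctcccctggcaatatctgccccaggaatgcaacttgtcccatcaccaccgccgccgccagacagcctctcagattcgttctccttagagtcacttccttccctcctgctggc
Cnp: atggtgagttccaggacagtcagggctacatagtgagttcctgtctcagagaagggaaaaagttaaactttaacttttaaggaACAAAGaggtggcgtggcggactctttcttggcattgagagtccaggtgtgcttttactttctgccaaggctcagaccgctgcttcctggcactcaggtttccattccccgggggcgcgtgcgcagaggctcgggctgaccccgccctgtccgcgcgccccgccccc
Mag held 1 such match, on the strand opposite to the one printed, and Cnp 1 on the printed strand. Ncmap and Mal held none, nor did the windows of Pmp22, Prx and Egr2. An EGR motif, GCGNGGGCG on either strand, was found in none of the 7 windows (7 of the 8 members had one that could be used). Among 32851 RefSeq windows of this length, 25.2% held a SOX match and 4.70% an EGR match.  GC content was 66% for Ncmap and for Mag, 50% for Mal and 57.2% for Cnp. A match or its lack says only which letters stand in the window.

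In naive mice the sorted SGCs held some of the myelin genes near 0. The others ran from 31.4% (Pmp22) to 184% (Mal) of their whole ganglion level on the FPKM + 1 scale. Ncmap, Mag and Prx were near 0 in sorted SGCs, Pmp22 was at 31.4% of its DRG level (on the FPKM + 1 scale), and Mbp, Cnp and Egr2 did not pass the test in either direction, while Mal was higher in SGCs. Of the 7 members tested, 3 fell (Ncmap, Prx and Pmp22) and 1 rose (Mal). On the same scale Mbp stood at 77.0%, Egr2 at 69.2% and Cnp at 128% of the DRG level. An unadjusted limma p under 0.05 was found for 6 of the 7, all but Mbp, beside 52.2% of all genes tested. Over all 12907 genes tested, 44.9% passed, 27.9% lower and 16.9% higher, so a called gene was common in this comparison. Tests here are limma's moderated test on log2(FPKM + 1) with Benjamini-Hochberg adjustment over all genes, and a gene passes at an adjusted p under 0.05. In bulk RNA, fewer cells of a type and less RNA per cell cannot be told apart.

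**Figure D1:**
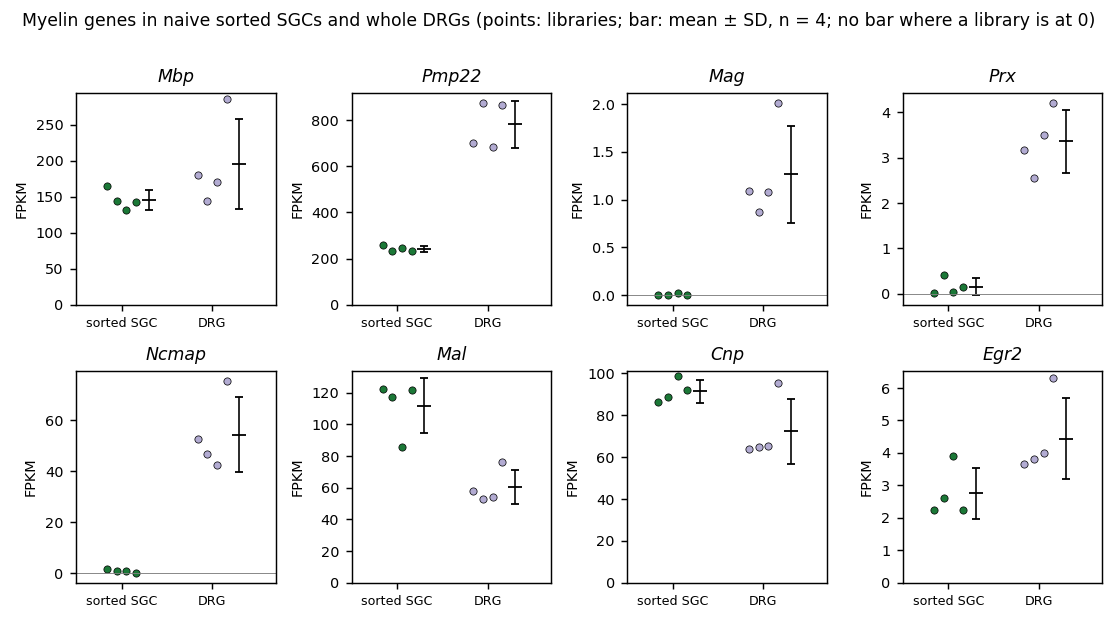
FPKM (y axis, linear, 1 panel per gene) of the 8 myelin genes in naive sorted SGC and whole DRG libraries (x axis); points are libraries and bars the mean ± SD of 4, drawn where no library is at 0. Ncmap lies between 0 and 1.67 FPKM in SGCs and between 42.2 and 75.4 in DRGs, whereas Mal lies between 85.7 and 123 FPKM in SGCs and between 52.9 and 76.4 in DRGs.

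Pmp22 and Mbp, both structural proteins of compact myelin, differed in their result: Pmp22 fell and Mbp did not pass the test. Pmp22 (ENSMUSG00000018217, GRCm38 chromosome 11, 63128982 to 63159547) stood at 259, 233, 247 and 233 FPKM in the SGC libraries, against 702, 875, 685 and 864 FPKM in the DRG libraries. The groups did not overlap, and the log2 difference was −1.67 ± 0.13 (SE; limma adjusted p = 3.04e-05). Pmp22 was still the most abundant of the 8 genes in both preparations, at 243 ± 12.4 FPKM in SGCs and 782 ± 102 in DRGs (SD, n = 4 each). Mbp (ENSMUSG00000041607, chromosome 18, 82475146 to 82585637) stood at 164, 144, 131 and 142 FPKM in SGCs, against 180.2, 143, 171 and 286 FPKM in DRGs. These ranges overlapped, and the difference of −0.38 ± 0.21 did not pass (limma adjusted p = 0.172); without DRG replicate 4, the highest library, it was −0.18 (limma adjusted p = 0.322).

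Ncmap, Prx and Mag stood near 0 in sorted SGCs. Ncmap (ENSMUSG00000043924, chromosome 4, 135369576 to 135398227) stood at 1.67, 0.762, 0.770 and 0 FPKM in SGCs, against 52.5, 46.8, 42.2 and 75.4 FPKM in DRGs. The lowest DRG library lay far above the highest SGC library, and the log2 difference was −4.99 ± 0.31 (limma adjusted p = 1.38e-05), which a pseudocount of 0.1 in place of 1 took to −6.46. Prx (ENSMUSG00000053198, chromosome 7, 27499324 to 27520214) stood at 0.00919, 0.416, 0.0394 and 0.149 FPKM in SGCs, against 3.17, 2.56, 3.49 and 4.21 FPKM in DRGs. Its log2 difference was −1.92 ± 0.18 (limma adjusted p = 7.98e-05), and −4.02 with a pseudocount of 0.1. Prx passed the filter on low values through the DRG libraries alone, so it could hardly have failed the test. Mag (ENSMUSG00000036634, chromosome 7, 30899176 to 30914873) was listed at 0, 0, 0.0194 and 0 FPKM in SGCs, against 1.09, 0.875, 1.08 and 2.01 FPKM in DRGs. It reached 1 FPKM in 3 libraries, under the minimum of 4, and was not tested; with no filter on low values its log2 difference was −1.15 ± 0.15 (limma adjusted p = 0.00146). On the opposite strand an antisense gene overlaps Prx, and a pseudogene overlaps each of Ncmap and Mbp. The sources used here do not state whether counting used strand.

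Mal was the member that rose, and Cnp had the next highest difference. Mal (ENSMUSG00000027375, chromosome 2, 127633226 to 127656695) stood at 123, 118, 85.7 and 122 FPKM in SGCs, against 58.2, 52.9, 54.5 and 76.4 FPKM in DRGs. Every SGC library exceeded every DRG library, and Mal rose by 0.88 ± 0.17 on the log2 scale (limma adjusted p = 0.00312). Cnp (ENSMUSG00000006782, chromosome 11, 100574904 to 100591729) stood at 86.2, 88.6, 99.0 and 91.9 FPKM in SGCs, against 63.8, 64.6, 65.4 and 95.7 FPKM in DRGs. Only DRG replicate 4 reached into the SGC range, and the difference of 0.35 ± 0.15 did not pass (limma adjusted p = 0.0926); without that library it was 0.49 and passed (limma adjusted p = 0.00723). Quantile normalization between libraries also took Cnp past the threshold, at 0.59 (limma adjusted p = 0.0155). Cnp overlaps Dnajc7 on the opposite strand, so its reads are uncertain where counting ignored strand.

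Egr2, the transcription factor among the members, was low in both preparations. Egr2 (ENSMUSG00000037868, chromosome 10, 67535475 to 67542188) stood at 2.25, 2.61, 3.90 and 2.25 FPKM in SGCs, against 3.67, 3.81, 3.98 and 6.30 FPKM in DRGs. SGC replicate 3 lay within the DRG range, and the difference of −0.53 ± 0.21 did not pass (limma adjusted p = 0.0686); without that library it was −0.67 and passed (limma adjusted p = 0.0292). Without DRG replicate 4, the highest of its group, it was −0.38 (limma adjusted p = 0.159), and under quantile normalization −0.28 (limma adjusted p = 0.308). Sox10, the transcription factor that Egr2 works with, was higher in SGCs by 1.06 ± 0.17 (155 ± 5.51 FPKM in SGCs and 75.2 ± 15.6 in DRGs, SD, n = 4 each; limma adjusted p = 0.00102).

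By level, the order in sorted SGCs was Pmp22, Mbp, Mal, Cnp, Egr2, Ncmap, Prx and Mag. Neighbours in this order were separated by non-overlapping libraries from Pmp22 down to Mal and between Cnp, Egr2 and Ncmap. Mal and Cnp overlapped each other, as did Ncmap and Prx, and Prx and Mag. In DRGs the order was Pmp22, Mbp, Cnp, Mal, Ncmap, Egr2, Prx and Mag, with Ncmap far above Egr2. Cnp and Mal overlapped there, as did Mal with Ncmap and Egr2 with Prx. DRG replicate 4 was the highest of its group for 7 of the 8 members (all but Pmp22). The same library had the lowest summed neuron markers of the DRG group, 2938 FPKM, and the highest summed SGC markers, 9253 FPKM; the part of either in its myelin levels was not tested.

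Other myelin genes went both ways in the same comparison, where 16.9% of all genes tested rose and 27.9% fell. Of 20 further myelin proteins and lipid enzymes, all tested, 6 rose, 7 fell and the median log2 difference was 0.02, beside −0.12 over all genes. The largest falls were in Cldn19, a claudin of Schwann cell tight junctions, at −3.44 (0.0172 to 0.687 FPKM in SGCs, 9.02 to 20.4 in DRGs), and in Nfasc, the adhesion protein neurofascin of nodes and paranodes, at −2.94 (0.0391 to 0.820 FPKM in SGCs, 7.64 to 12.0 in DRGs). Tspan2, a tetraspanin, had a difference of −1.72, Gldn, a ligand that gathers nodal channels, of −1.63 and Pllp, a proteolipid of the same family as Mal, of −1.62, and all 3 passed. Cldn19, Nfasc and Gldn were under 1 FPKM in every SGC library, so these 3 of the 7 that fell passed the filter through the DRG libraries alone and could hardly have failed the test. Cadm4, an adhesion protein of the internode, rose by 1.49 (11.3 to 19.7 FPKM in SGCs, 2.49 to 6.12 in DRGs). Under quantile normalization 9 of these genes rose and 7 fell.

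Transcription factors and receptors of the Schwann lineage were mostly higher in sorted SGCs. Of 17 listed, 15 were tested, of which 14 rose and none fell; the 1 that did not pass was Yy1, at 0.38. Their median was 1.18, beside −0.12 over all genes, of which 16.9% rose and 27.9% fell. Sox2, a factor of immature glia, rose by 1.81 (55.5 to 78.2 FPKM in SGCs, 12.4 to 23.1 in DRGs), Adgrg6, an adhesion receptor that Schwann cells need to myelinate, by 1.52, Pou3f2, a POU domain factor, by 1.49, and Id4, an inhibitor of differentiation, by 1.36. Nab2, a partner of EGR proteins, rose by 1.65 and Erbb2, the neuregulin co-receptor, by 1.55, each listed at 0 in 3 of the 4 DRG libraries. Of 11 genes of non-myelinating and repair Schwann cells, 7 were tested. Of these 1 rose (Ncam1) and 5 fell (Ngfr, Gap43, Scn7a, L1cam and Shh), with a median of −1.96. The sum of the 11 did not fall, at 457 to 564 FPKM in SGCs and 373 to 418 in DRGs. In neuron libraries, scaled separately, the 6 of them listed summed to 391 to 1107 FPKM. Neuron markers had a median of −4.68 in the naive comparison, and the part of neuron RNA in these falls was not tested.

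**Figure D2:**
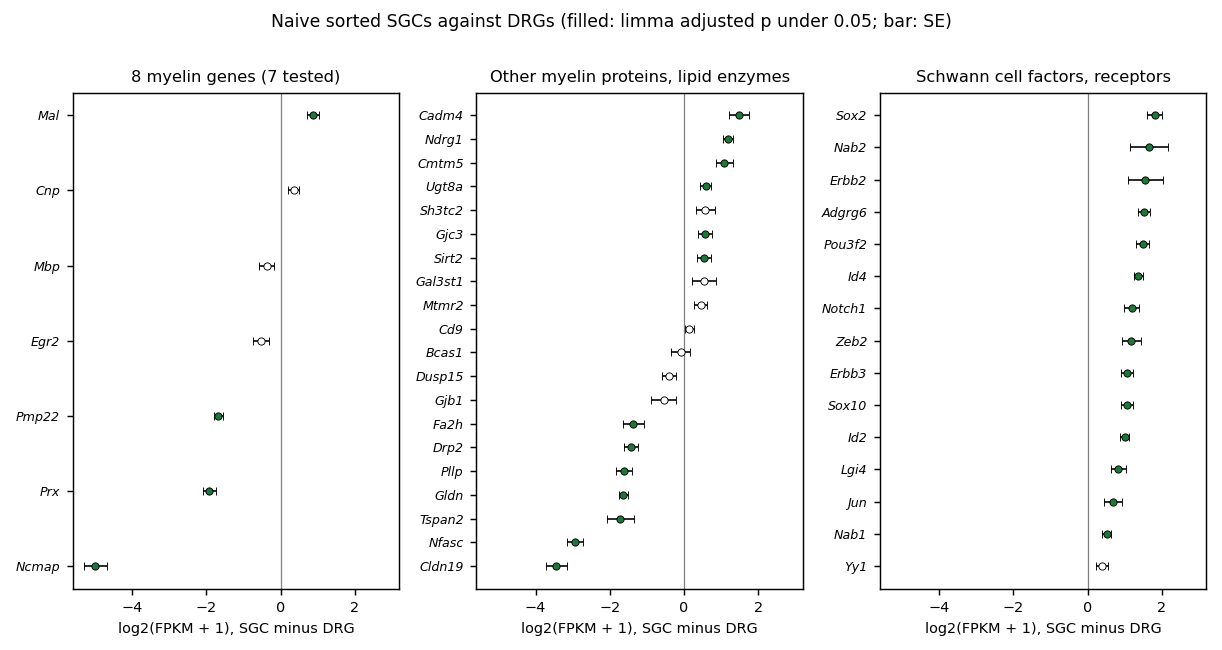
Log2 difference of log2(FPKM + 1), SGC minus DRG (x axis), for the members tested, the other myelin genes and the Schwann lineage factors and receptors; bars are SE from limma, and filled points passed an adjusted p of 0.05. Members run from −4.99 for Ncmap to 0.88 for Mal, the other myelin genes from −3.44 to 1.49, and all 15 lineage genes lie to the right of 0, of which 14 passed.

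Markers of other cells differed between the same 2 preparations, where 16.9% of all genes tested rose and 27.9% fell. All 11 SGC markers were higher in the sorted cells, with a summed level of 16823 to 24299.8 FPKM in SGCs and 6018 to 9253 in DRGs, none listed at 0. All 11 neuron markers tested, of 12 listed, were lower, with a summed level of 105 to 262 FPKM in SGCs and 2938 to 5325 in DRGs, none listed at 0. All 9 macrophage markers tested of 10 were lower (3.65 to 8.52 FPKM in SGCs, 92.4 to 107 in DRGs), or 8 of the 9 under quantile normalization, with C1qa at 0 in all 4 SGC libraries. All 5 erythrocyte markers were lower (0.704 to 1.11 FPKM in SGCs, 1352 to 3220 in DRGs), with Hbb-bt at 0 in all 4 SGC libraries. Of those called, 5 macrophage markers and all 5 erythrocyte markers were under 1 FPKM in every SGC library and passed the filter through the DRG libraries alone, which fixed their direction. Endothelial markers went the other way: of 8 tested, 4 rose (Flt1, Cdh5, Cldn5 and Kdr), none fell and the median was 0.88, with a summed level of 103 to 223 FPKM in SGCs and 44.3 to 94.2 in DRGs; Egfl7 was at 0 in 2 DRG libraries, and 7 rose under quantile normalization. Of 6 mural cell markers 1 rose and 4 fell (9.53 to 13.2 FPKM in SGCs, 137 to 190.3 in DRGs), 2 of the 4 with every SGC library under 1 FPKM. Of 5 fibroblast markers tested, 1 rose and none fell (114 to 355 FPKM in SGCs, 169 to 249 in DRGs), or 2 under quantile normalization. The part of these cells in the differences of the myelin genes was not tested. The 7 oligodendrocyte markers, which include Mog and Mobp, summed to between 0 and 0.553 FPKM in SGCs and between 0.0293 and 0.320 FPKM in DRGs, and none passed the filter on low values. Quantile normalization moved the median over all genes to 0.16 and the share of higher calls among all calls to 57.9%, against 37.7% as deposited; it left the direction of all 7 tested members as given, with Mbp at −0.07.

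After nerve ligation the question was whether SGCs changed their myelin genes. None of the 5 members tested (Mbp, Pmp22, Mal, Cnp and Egr2) passed at 3 days, at 14 days or in the change of the ligation difference between the 2 times, by limma over all 16 SGC libraries, and none had an unadjusted p under 0.05. Few genes passed at all: 9 of 13924 (0.0646%) at 3 days, 1 (0.00718%) at 14 days and 1 (0.00718%) for the change between times, while 1269, 718 and 584 genes had an unadjusted p under 0.05. By the authors' deposited tables, no member passed an adjusted p of 0.05 either, where 1.01% of 17662 genes passed at 3 days and 1.05% of 19185 at 14 days. Mag, Prx and Ncmap did not reach 1 FPKM in 4 of the 16 libraries and were not tested.

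At 3 days the tested members differed by 0.02 to 0.32 on the log2 scale. With 1 library left out at a time the difference ran from 0.05 to 0.71 for Egr2, from 0.06 to 0.35 for Mal and from 0.04 to 0.22 for Mbp. Pmp22 stood at 251, 169.7, 256 and 245 FPKM after ligation, against 227, 198, 259 and 211 after sham surgery (difference 0.03 ± 0.16, limma adjusted p = 0.977). Mbp stood at 132, 141, 134 and 125 FPKM after ligation, against 101, 105, 139.8 and 146 after sham surgery (0.13 ± 0.15, limma adjusted p = 0.847). The sham libraries of Mbp spread on both sides of the ligated ones. Mal averaged 104 ± 6.24 FPKM after ligation and 92.6 ± 24.1 after sham surgery (SD, n = 4 each; difference 0.20 ± 0.16). Cnp averaged 80.0 ± 1.64 FPKM after ligation and 79.4 ± 8.10 after sham surgery (difference 0.02 ± 0.16). Egr2 stood at 3.53, 0.485, 4.81 and 2.07 FPKM after ligation, against 3.56, 1.96, 0.519 and 1.41 after sham surgery (difference 0.32 ± 0.40, limma adjusted p = 0.853).

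At 14 days the differences ran from −0.19 for Cnp to 0.38 for Egr2. Cnp stood at 84.2, 110.5, 73.9 and 101.5 FPKM after ligation, against 85.9, 119.6, 128 and 88.9 after sham surgery (−0.19 ± 0.16, limma adjusted p = 1). Egr2 stood at 2.41, 3.71, 3.79 and 2.77 FPKM after ligation, against 2.49, 1.36, 2.99 and 2.13 after sham surgery (0.38 ± 0.40, limma adjusted p = 1). Both pairs of groups overlapped. Pmp22 averaged 268 ± 51.8 FPKM after ligation and 279 ± 27.9 after sham surgery, Mbp 131 ± 24.8 after ligation and 134 ± 12.2 after sham surgery, and Mal 107 ± 14.4 after ligation and 111 ± 4.41 after sham surgery (SD, n = 4 each). The ligation difference at 14 days minus that at 3 days ran from −0.26 ± 0.23 for Mal to 0.06 ± 0.56 for Egr2.

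The 3 genes that were near 0 in naive SGCs were near 0 after surgery as well. Mag lay between 0 and 0.542 FPKM and Prx between 0 and 0.728 FPKM over the 16 libraries. Ncmap stood at 0.0799, 0.273, 0 and 0.0859 FPKM 3 days after ligation, against 1.17, 0.949, 1.37 and 0.0607 FPKM 3 days after sham surgery. At 14 days Ncmap stood at 0.0321, 0, 0 and 0.571 FPKM after ligation, against 0.735, 1.77, 0.0602 and 0.514 FPKM after sham surgery. At each time the ligated libraries were mostly under the sham ones, with 1 sham library as low as the ligated ones at 3 days and the groups overlapping at 14 days. The authors' deposited table gave log2 folds, ligated over sham, of −2.80 ± 1.13 (SE; adjusted p = 0.278) at 3 days and −1.79 ± 1.60 (adjusted p = 0.863) at 14 days, and limma with no filter gave −0.71 (adjusted p = 0.717) and −0.56 (adjusted p = 1). No fold is firm for a gene this near to 0.

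**Figure D3:**
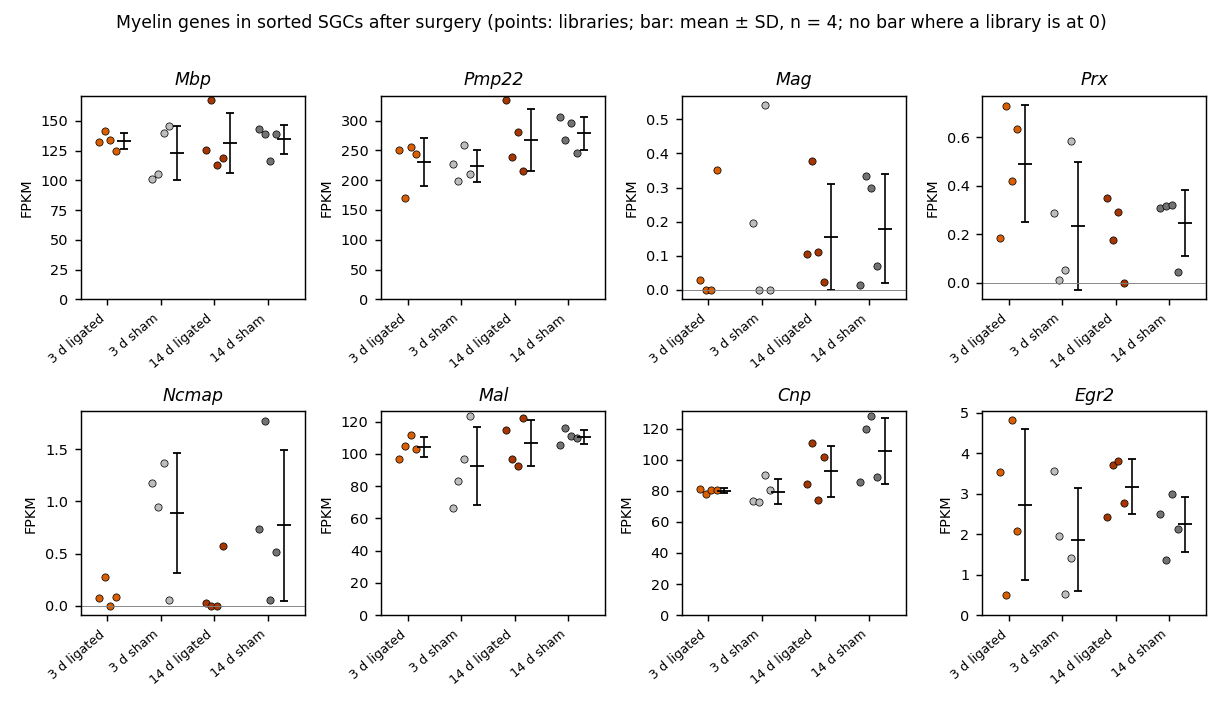
FPKM (y axis, linear, 1 panel per gene) of the 8 myelin genes in sorted SGCs 3 and 14 days after ligation or sham surgery (x axis); points are libraries and bars the mean ± SD of 4, drawn where no library is at 0. Pmp22, Mbp, Mal and Cnp lie between 66.5 and 334 FPKM in all 16 libraries with overlapping groups, and Mag, Prx and Ncmap reach 1.77 FPKM at most.

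None of the 16 other myelin genes tested and none of the 15 lineage factors and receptors passed at either time, with medians of −0.04 and −0.02 at 3 days and −0.03 and −0.06 at 14 days, beside −0.01 and −0.02 over all genes. Sox10 lay between 107 and 163 FPKM over the 16 libraries. Among other cells, the 8 endothelial markers had positive differences at both times (medians 0.61 and 0.48), with none past the test. At 3 days the macrophage markers summed to 2.48 to 24.8 FPKM after ligation (median 16.2) and to 5.68 to 10.6 after sham surgery (median 7.03). At 14 days they summed to 10.5 to 34.6 FPKM after ligation (median 24.1) and to 2.67 to 18.4 after sham surgery (median 5.58). Of 10 macrophage markers 4 were tested, with median differences of 0.10 and 1.09 at the 2 times. Differences were positive for 2 of the 4 at 3 days and for all 4 at 14 days, with none past the test. The part of endothelial cells and macrophages in the values of the members was not tested. The order of the 5 most abundant members by mean was Pmp22, Mbp, Mal, Cnp and Egr2 in each of the 4 groups, the order also seen in naive SGCs.

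In isolated neurons the 5 members listed stood at very different levels, with Pmp22 far above the others. Pmp22 lay between 632 and 2803 FPKM over the 20 neuron libraries (median 1283). Its lowest library was thus above the highest library of each of the other 4 members. Mbp lay between 34.4 and 253 FPKM, Cnp between 25.9 and 82.0 FPKM, Mal between 3.93 and 16.4 FPKM and Ncmap between 0 and 14.6 FPKM. The authors' deposited neuron table gives mean normalised counts, which are not per length, of 10.4 for Sox10, 4.15 for Egr2, 9.31 for Mag and 85.6 for Prx. The neuron markers summed to between 9006 and 13296 FPKM in these libraries and the 4 SGC markers listed to between 38.9 and 80.4 FPKM.

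Placed by rank among the 12170 genes found in all 3 tables, which sets aside the separate scaling, the members differed in where they stood. These 12170 are all the genes listed for neurons, so genes absent from the neuron table are left out. That choice may raise percentiles in SGCs relative to neurons, which was not tested. Pmp22 had percentiles of 98.9 to 99.9 in neuron libraries, against 96.9 to 98.2 in SGC libraries after surgery. Mal had percentiles of 31.7 to 64.5 in neurons, against 93.1 to 96.0 in those SGCs. Cnp had percentiles of 73.0 to 89.0 in neurons, against 93.3 to 95.7 in SGCs, and Mbp of 78.8 to 96.4 in neurons, against 95.2 to 96.6 in SGCs. Of the 4, Pmp22 alone had a higher rank in every neuron library than in every SGC library. These ranks describe preparations that also differ in fixation, sorting and RNA kit, and were not tested.

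After partial ligation none of the 5 members passed in neurons. Over both sexes none did by limma, where 34 of 12145 genes (0.280%) did, all higher; by the authors' deposited table none passed where 1.70% of 13926 genes did. Pmp22 stood at 2803, 1915 and 1119.8 FPKM in ligated males and 2403, 961.5 and 999 in ligated females, against 1204, 2314 and 1115 in sham males and 1993, 1148 and 1014 in sham females (0.16 ± 0.29, limma adjusted p = 0.999). The highest library of each of the 4 groups was at 1993 FPKM or above and the lowest at 1119.8 FPKM or below, so the groups overlapped throughout. Ncmap stood at 0.640, 1.16 and 0.558 FPKM in ligated males and 1.46, 1.20 and 1.38 in ligated females, against 2.58, 1.72 and 14.6 in sham males and 0.626, 2.18 and 3.67 in sham females. Its difference of −0.95 ± 0.45 had an unadjusted p = 0.0497 (limma adjusted p = 0.999), and was −0.56 without the sham male library at 14.6 FPKM.

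Mbp, Mal and Cnp differed by 0.09 ± 0.38, 0.13 ± 0.26 and 0.07 ± 0.21 in that comparison. Mbp stood at 41.5, 52.8 and 253 FPKM in ligated males and 38.7, 44.3 and 78.4 in ligated females, against 58.9, 49.0 and 97.7 in sham males and 34.4, 81.9 and 64.0 in sham females. The ligated male library at 253 FPKM stood apart, and without it the difference turned to −0.31. The ligation difference in males minus that in females was called for none of the 5 members and for none of the 12145 genes (0%), with 130 genes at an unadjusted p under 0.05 by limma. For Mal, that difference was 0.94 ± 0.52 (limma adjusted p = 1): Mal averaged 9.82 ± 3.09 FPKM in ligated and 6.12 ± 1.81 in sham males, and 6.91 ± 1.93 in ligated and 9.07 ± 2.73 in sham females (SD, n = 3 each).

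Between the ligated and the opposite side, none of the 5 members passed either, where 81 of 12145 genes (0.667%) did. Mal stood at 5.229, 3.935, 4.796 and 5.761 FPKM on the ligated side, against 7.98, 4.96, 16.4 and 11.5 on the opposite side. The opposite side was higher in 3 of its 4 libraries than every library of the ligated side, and the difference of −0.82 ± 0.32 had an unadjusted p = 0.0186 (limma adjusted p = 0.368). Pmp22 averaged 1267 ± 188 FPKM on the ligated side and 1249 ± 429 on the opposite side, Mbp 109.5 ± 24.9 on the ligated side and 90.3 ± 39.8 on the opposite side, and Cnp 57.3 ± 7.35 on the ligated side and 48.9 ± 20.2 on the opposite side (SD, n = 4 each). Library 2 of the opposite side was the lowest of its group for all 5 members. Of 12 other myelin genes tested, none passed over both sexes and 1, Ndrg1, a stress-regulated gene in which mutations cause a demyelinating neuropathy in humans, rose on the ligated side by 2.20 (limma adjusted p = 0.00526).

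**Figure D4:**
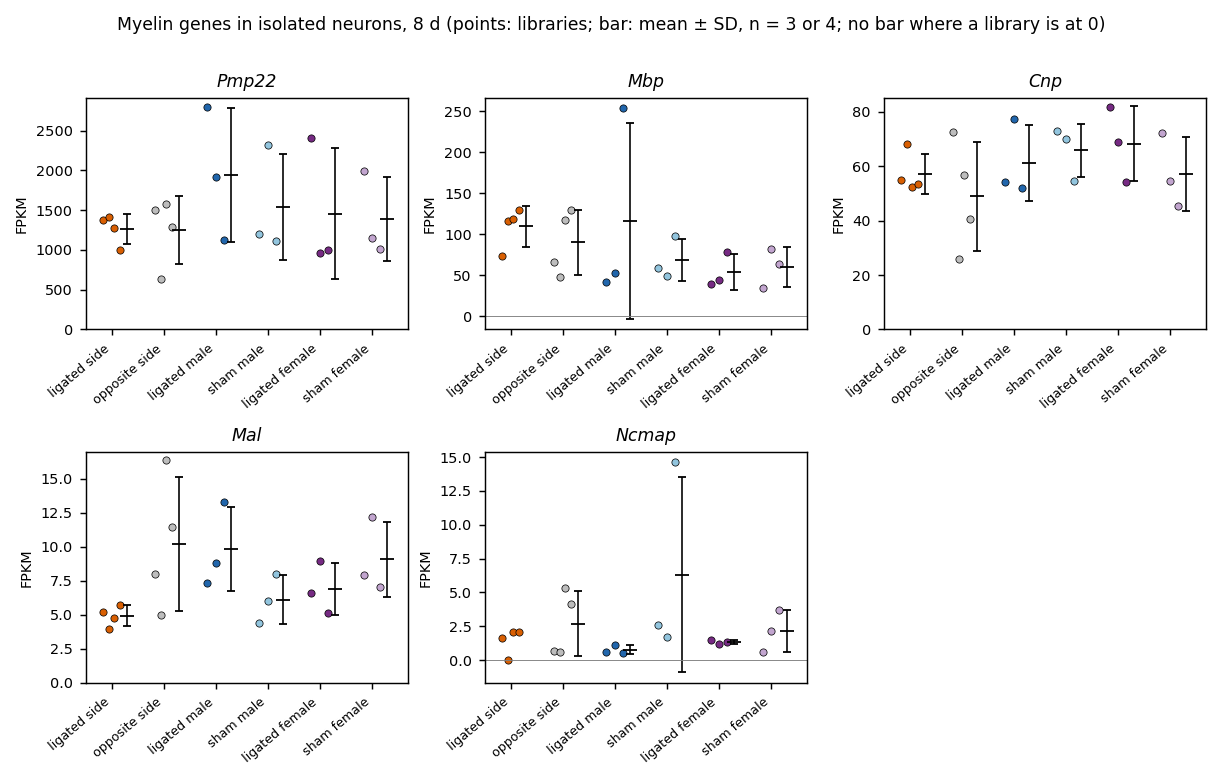
FPKM (y axis, linear, 1 panel per gene) of the 5 members in the neuron table in the 6 groups of neuron libraries at 8 days (x axis); points are libraries and bars the mean ± SD of 3 or 4, drawn where no library is at 0. Pmp22 lies at 632 FPKM or above throughout while Mal and Ncmap reach 16.4 FPKM at most, and the ligated male library with Mbp at 253 FPKM stands apart.

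The erythrocyte markers differed widely between neuron libraries, from 354 to 24162 FPKM in sum. The library with the most Pmp22 in ligated males, ligated females, sham males and sham females had summed erythrocyte markers of 2322, 561, 354 and 763 FPKM. The library with the least Pmp22 in those groups had 18891, 9223, 9512 and 9907 FPKM, in the same order. The side groups did not share this order. On the ligated side the library with the most Pmp22 (1410.2 FPKM) had 16036 FPKM of erythrocyte markers and the one with the least (998 FPKM) had 10781, and on the opposite side the library with the most (1572 FPKM) had 18612 and the one with the least (632 FPKM) 18963. In 4 of the 6 groups the library with the most Pmp22 thus had far fewer erythrocyte transcripts than the one with the least, on the opposite side slightly fewer and on the ligated side more, and the part of these transcripts in the levels of Pmp22 was not tested. Among the members themselves, after group means were subtracted from log2(FPKM + 1), Pmp22 went with Cnp in neurons (Pearson r = 0.67) and Mbp and Ncmap each with Mal (0.59 and 0.58), as a description over 20 libraries, each pair measured in the same libraries on 1 scale. In SGCs the closest pair was Mag with Cnp (0.59, with Mag under 0.55 FPKM), and Mbp with Mal reached 0.45 over 16 libraries.

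The genes whose library-to-library pattern in SGCs was most like each member included no other member. Mag, Prx and Ncmap were not among the genes tested in SGCs, so they could not have appeared. Over the 16 libraries with group means subtracted, among the genes tested there, the 3 highest Pearson r for Mbp were with Dnaaf5 (0.90), Ckb (0.89) and Ephb6 (0.86), and for Pmp22 with Mib2 (0.87), Tbc1d19 (0.85) and Cpe (0.85). Mal was most like Tspan9 (0.86), Rab29 (0.86) and Thrap3 (0.85), Cnp most like Fermt2 (0.82), Ccdc12 (0.80) and Gm16379 (0.79), and Egr2 most like Tmem179 (0.83), Kif1a (0.83) and Obsl1 (0.80). Ncmap was most like RP23-293K21.8 (0.80), Dhh (0.78), a ligand made by Schwann cells, and Socs7 (0.78). Mag was most like Cyp39a1 (0.82), Uba1 (0.81) and Ccdc101 (0.80), and Prx most like Insl3 (0.86), Rragc (0.85) and Kdm5d (0.84). The values for Ncmap (median 0.179 FPKM), Mag and Prx all come from levels near 0. These are the highest of many values over few libraries and are given as a description.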

How the data were processed

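The deposited FPKM values, made by the authors and written per gene and library in 3 tables, were used as they stood; per the submitters' processing notes, STAR, SAMtools, Cufflinks and DESeq2 were used with mm10, with versions and roles not given in the sources used here. Read counts are not part of these tables, so the depth is unknown and no counting interval is given. The authors' deposited comparison tables hold, per the file headers, a mean normalised signal (baseMean), a log2 fold change, its standard error (a score here) and an adjusted p-value. Their direction is not named; it was set from genes with an adjusted p under 0.05 that also passed the filter, whose deposited fold had the opposite sign to the FPKM difference in 125 of 126, 151 of 152 and 228 of 228 genes (3 days, 14 days, neurons), and folds are printed as ligated over sham. A table naming no comparison, and 6 columns of authors' means, were not used.

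Lines with the same identifier were summed. Genes that reached 1 FPKM in 4 or more libraries of the SGC and naive tables, or 3 or more neuron libraries (the size of the smallest group), were fitted as log2(FPKM + 1) with limma 3.58.1 (R 4.3.3, moderated test with trend, all groups of a table in 1 fit), Benjamini-Hochberg adjusted over all genes tested, and called at an adjusted p under 0.05. The step was tested on simulated data. Summaries and plots used Python 3.11.15, pandas 2.3.3, NumPy 2.4.6 and Matplotlib 3.10.9. Further myelin genes, and the planned results that rest on them, are not reported here. Neuron columns name a group but no replicate, so their library numbers only follow the columns. Named genes are all members, up to 6 genes per myelin list and comparison with the largest difference among those that passed, Sox10, and the 3 genes most like each member. Some genes of the other lists are named as well. Members and lists were chosen with earlier results of these data known. Alternatives were another pseudocount, no filter, quantile normalization, array weights, only the groups compared, a replicate block, the highest of repeated lines, and each library left out. Promoter sequences are from RefSeq (GRCm38.p6), gene positions from GENCODE M21.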

Additional observations from a re-analysis of the deposited data

Results flagged for a closer look

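Of 58 groups of 4 libraries examined over the 8 members, 10 held a library whose gap to the nearest other one was more than 0.829 of the range of the group, a level that chance gives in about 1 in 20 groups. In naive SGCs, replicate 3 was the only library with Mag above 0 (0.0194 FPKM, gap 1 of the range) and had the lowest Mal (85.7 FPKM, gap 0.860). In naive DRGs, replicate 4 had the highest Cnp (95.7 FPKM, gap 0.952) and the highest Egr2 (6.30 FPKM, gap 0.881). Without that library the difference was 0.49 for Cnp (limma adjusted p = 0.00723), which then passed, and −0.38 for Egr2 (limma adjusted p = 0.159).

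After surgery, 3 libraries ligated for 3 or 14 days stood apart: replicate 2 at 3 days with the lowest Pmp22 (169.7 FPKM, gap 0.865), replicate 4 at 3 days with the highest Mag (0.350 FPKM, gap 0.915) and replicate 4 at 14 days with the highest Ncmap (0.571 FPKM, gap 0.944). Of the 14 day sham libraries, replicate 3 had the lowest Mbp (116 FPKM, gap 0.843) and replicate 4 the lowest Prx (0.0423 FPKM, gap 0.950). In neurons of the ligated side, library 2 had the highest Cnp (68.2 FPKM, gap 0.831). The Mag, Prx and Ncmap values lie so near 0 that a gap in them spans less than 0.6 FPKM.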

How the results depend on the processing

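The 4 calls among the members in naive mice kept their direction and their side of the threshold under every setting run. Prx passed the filter on low values through the DRG libraries alone, so its stability adds little. Ncmap reached 1 FPKM in 5 naive libraries, and its DRG libraries would have met the filter without the SGC ones. The count of members called lay between 4 and 6 when 1 library was left out. Leaving out a library also lowered the filter with the smallest group. Mag, at 1 FPKM or more in 3 libraries, could then be tested where those 3 were kept, which adds to that count. Of 613 single values under other settings, 580 kept direction and call, 30 turned and 3 newly passed. Genes called at 3 days (9) became 14 with a pseudocount of 0.1, 1 with no filter, 5 with array weights, 4 with only the groups compared and 0 with a replicate block; they lay between 1 and 6 with 1 library left out, and at 1 without sham replicate 2 or ligated replicate 4. At 14 days (1) they became 10 with array weights and 6 when the fit held 14 day libraries alone, and lay between 0 and 5 with 1 library left out. The change between times (1) lay between 1 and 4, neurons over both sexes (34) between 21 (without ligated male library 3) and 39, the difference between sexes (0) between 0 and 1, and the side comparison (81) between 62 and 119, with 36 for only the groups compared. Array weights turned Pmp22 (−0.012) and Cnp (−0.041) at 3 days, Egr2 (−0.24) in the change between times, Mbp (−0.071) in neurons over both sexes, and Pmp22 (−0.16) and Cnp (−0.038) between sides; quantile normalization turned Egr2 (−0.0040) in the change between times. With 1 library left out, values that turned ranged from −0.027 to 0.17 (Pmp22) and −0.023 to 0.079 (Cnp) at 3 days, −0.17 to 0.020 (Mbp), −0.19 to 0.022 (Pmp22) and −0.13 to 0.0065 (Mal) at 14 days, and −0.33 to 0.33 (Egr2) in the change between times. In neurons they ranged from −0.31 to 0.34 (Mbp), −0.058 to 0.33 (Pmp22) and −0.018 to 0.16 (Cnp) over both sexes, −0.34 to 0.95 (Mbp) between sexes and −0.21 to 0.23 (Pmp22) between sides. Others kept their direction but moved by over 1.5 times: Cnp (−0.28 to −0.085) and Egr2 (0.23 to 0.48) at 14 days, Mbp (−0.30 to −0.088), Pmp22 (−0.24 to −0.0090), Mal (−0.41 to −0.12) and Cnp (−0.29 to −0.10) in the change between times, Mal (0.018 to 0.23) and Ncmap (−1.19 to −0.56) in neurons over both sexes, Pmp22 (0.0073 to 0.75), Ncmap (−1.78 to −0.52) and Cnp (−0.55 to −0.22) between sexes, and Mbp (0.093 to 0.57), Ncmap (−0.76 to −0.067) and Cnp (0.050 to 0.53) between sides; none passed. None of the turned limma differences had passed, and the cause was not tested. Deviations of same-numbered libraries had correlations from −0.0758 to 0.186, and those of other-numbered libraries from −0.105 to 0.114. Such correlations cannot show whether same-numbered libraries share animals, so pairing is unknown. The replicate block gave 5187 genes and 4 members in naive mice, 1 gene at 14 days and 1 for the change between times. At 14 days that 1 gene was lower after ligation, whereas the 1 gene called by the main fit was higher. No paired analysis was possible for neurons because their columns carry no replicate numbers. With no read counts, a level near 0 cannot be given a limit.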
